A study of Mus musculus with 2 samples.

Results

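The small RNA table of the *Dnmt1*-WT and *Dnmt1*-KO jejunum lists 67 of its 1147 entries under the name of a hairpin precursor (written mir, in lower case) and the other 1080 under the name of a mature miRNA (written miR). The 67 are all entries so named, and the rule uses no measured value, although this class of entries was picked with earlier results known. The libraries were made from jejunal smooth muscle (tunica muscularis) of C57BL/6 mice aged 15 days, peeled from the mucosa. *Dnmt1*-KO mice carried *Dnmt1*lox/lox alleles recombined by a *Cre*-eGFP transgene under the *Myh11* promoter, which is active in smooth muscle, and *Dnmt1*-WT mice carried the same transgene with intact *Dnmt1*. The labels name the transgene Tg(Myh11-cre,-EGFP)2Mik and give Dnmt1lox/lox for both samples, and the description of the WT library also reads *Dnmt1*-/-, so groups follow the genotype label. There was 1 library per genotype. The spread between mice is therefore unknown and no p-value was computed. The methods give males and females for each genotype without saying how they were combined.

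A miRNA is cut from a hairpin-shaped precursor, which Drosha releases in the nucleus and Dicer trims in the cytoplasm to a mature strand. Reads of a true miRNA therefore pile up on the mature strands, and the loop and flanks of the hairpin are seldom seen. Several mouse hairpins catalogued from sequencing data are known to coincide with abundant other RNAs, such as ribosomal RNA, transfer RNA, small nucleolar RNA and short interspersed repeats (SINEs) of the B1 and B2 kinds. In a small RNA library, fragments of those RNAs can be counted under a miRNA name.

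The mature products of the hairpins with the most reads are shown to make visible what was counted, with the seed (bases 2 to 8) in capitals. Sequences and coordinates are those of RefSeq on GRCm38.p6, where 59 of the 67 entries matched a mature sequence and 45 a hairpin. miR-3470a was not matched.
miR-6236 (chr9:110281353-110281371, plus strand): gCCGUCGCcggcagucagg
miR-6240 (chr5:114851973-114851998, plus strand): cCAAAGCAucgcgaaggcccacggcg
miR-3535 (chr1:86352062-86352087, minus strand): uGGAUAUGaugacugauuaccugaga
miR-3470b (chr16:44013885-44013905, plus strand): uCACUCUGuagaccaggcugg
miR-3471 (chr4:10845585-10845606, minus strand, read at the other hairpin of this number, mir-3471-1): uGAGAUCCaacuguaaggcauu
miR-1954 (chr2:32652342-32652362, plus strand): aCUGCAGAgugagacccuguu
miR-1983 (chr13:21896930-21896950, minus strand): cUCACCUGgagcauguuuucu
miR-5098 (chr5:77272767-77272787, plus strand): gUUACAUGgugaagcccaguu
No seed occurred more than 1 time among them.

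The hairpins of mir-6240 and mir-1983 are shown in full because the hairpin entry and the mature entry of the same number are compared below. Capitals mark the mature product, at bases 26 to 51 of the 117 bases of mir-6240 (chr5:114851948-114852064, plus strand) and at bases 100 to 120 of the 132 bases of mir-1983 (chr13:21896918-21897049, minus strand). How reads were assigned to the hairpin name or to the mature name is not given in the sources used here, so the split between both entries is that of the deposited table.
mir-6240: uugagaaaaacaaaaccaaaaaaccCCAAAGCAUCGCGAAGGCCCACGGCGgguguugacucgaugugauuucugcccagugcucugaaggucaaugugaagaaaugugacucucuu
mir-1983: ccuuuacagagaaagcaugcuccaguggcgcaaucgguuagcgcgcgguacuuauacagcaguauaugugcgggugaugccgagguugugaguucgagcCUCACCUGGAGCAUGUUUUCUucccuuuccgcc

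The WT library held a total of 5741906 and the KO library 4754677 in the deposited unit, of which 1 is close to 1 read. miR-143-3p, miR-145a-5p and miR-133a-3p, which mark smooth and other muscle, stood at 1777100, 275275 and 137241 in WT and at 1232984, 164499 and 40502 in KO, so muscle miRNAs were abundant in both libraries. Markers of other cells, listed after their values were seen, were also present. The 5 white blood cell miRNAs summed to 1675.7 in WT and 4843.2 in KO, with 5 of 5 higher in KO and miR-142a-5p at 578.6 and 2897.8. The 3 red blood cell miRNAs, of which miR-486a-5p is also made in muscle, summed to 12735 and 47198.1, with 3 of 3 higher in KO. The liver miRNA miR-122-5p stood at 72.2 and 769.8. The 9 epithelial miRNAs summed to 14764.7 and 18426.8 (5 of 9 higher), and the endothelial miR-126a-3p stood at 5829.5 and 7417. The 2 neuronal ones listed summed to 2221.3 and 2259.6 (1 of 2 higher), with miR-9-5p at 1751 and 1913.6 and miR-124-3p at 470.3 and 346. Their other strands, not on the list, were lower in KO, miR-9-3p at 282.8 and 142.6 and miR-124-5p at 9 and 7. Further neuronal miRNAs were not listed, so this sum does not show whether neuronal RNA differed. The part of these differences in the hairpin values was not tested. Because the muscle layer was sequenced in bulk, fewer cells of a type and less RNA per cell cannot be told apart. The 67 hairpin entries together held 3059.6 in WT and 775.3 in KO. They were 0.0533% of the WT reads (95% Wilson interval 0.0514 to 0.0552%) and 0.0163% of the KO reads (0.0152 to 0.0175%). Their summed KO/WT ratio was 0.253 (95% exact binomial interval 0.234 to 0.274), against 0.828 for the 1080 mature entries. Intervals cover counting error only.

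A few entries carried nearly all of these reads. Only 4 of the 67 reached a value of 100 in either library, 13 reached 5, and 54 stayed under 5 in both. The 9 whose mean over both libraries was at least 10 held 98.0% of the hairpin total in WT and 90.0% in KO. These 9 were mmu-mir-6236, mmu-mir-6240, mmu-mir-3535, mmu-mir-3470b, mmu-mir-3471-2, mmu-mir-1954, mmu-mir-1983, mmu-mir-5098 and mmu-mir-3470a, written without the mmu (mouse) prefix from here on. Of the 9, 6 were at least 2-fold lower in KO and 1 was at least 2-fold higher. Over all 543 entries of the table with such a mean, 9.94% were at least 2-fold lower and 11.4% at least 2-fold higher. Of the 3 whose mean was at least 100, 2 were at least 2-fold lower and 0 higher, against 8.86% and 6.33% of the table. The median log2 ratio of the 9 was -2.20, against 0.02 for the 531 entries with such a mean that were above 0 in both libraries. Ordered by ratio among those 531, the lowest were mir-3471-2 (rank 1) and mir-3470b (rank 2), with mir-6236 at rank 4, mir-3470a at rank 5 and mir-1954 at rank 8. mir-3471-2 and mir-3470a exceeded 10 in WT alone and passed the limit on the mean through that library, so for them a low ratio is partly set by the limit. Both are among the 6 lower entries, so that count, its comparison with the table and the median of the 9 also depend partly on the limit.

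**Figure D1:**
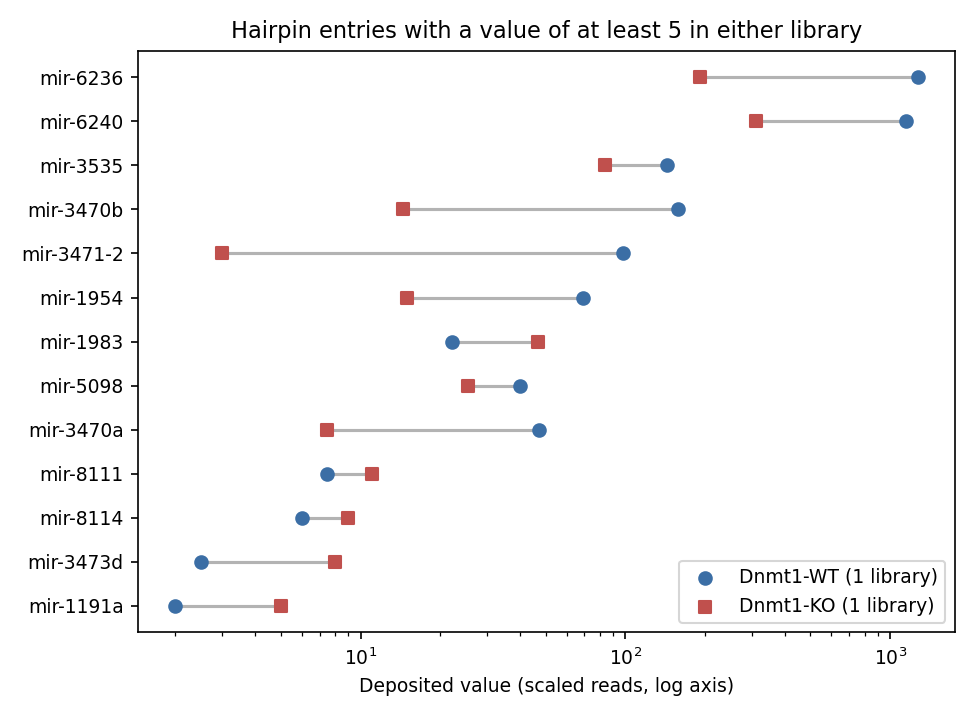
Deposited values (scaled reads, log axis) of the 13 hairpin entries with a value of at least 5 in either library, with 1 library per genotype. The KO square lies left of the WT circle in 8 of the 9 upper entries, and right of it in mir-1983 and the 4 lowest entries.

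Entries listed as ribosomal RNA came first by value. mir-6236 and mir-6240 are listed here as matching the large ribosomal RNA from general knowledge and from the stated selection rule. The 28S ribosomal RNA sequence was not used here to check this. mir-6236 (chr9:110281287-110281409 on GRCm38, plus strand, in no other GENCODE gene and within the span of the RefSeq long noncoding RNA *Gm39429*) stood at 1269.6 in WT and 191.5 in KO, a ratio of 0.151 (0.129 to 0.176). mir-6240 (in no other annotated gene) stood at 1150.3 in WT and 310.1 in KO, a ratio of 0.270 (0.237 to 0.306). Both were thus at least 2-fold lower in KO by the whole of their counting intervals, and the intervals of the pair did not overlap each other. Together they made 79.1% of the hairpin total in WT and 64.7% in KO. Without them, the remaining 65 entries summed to 639.7 and 273.7, a ratio of 0.428 (0.369 to 0.493).

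Among the entries listed as SINE repeats, the 2 abundant ones were lower in KO. mir-3470b (chr16:44013852-44013977, plus strand, antisense to an intron of *Gramd1c*) stood at 158.5 in WT and 14.5 in KO, a ratio of 0.0915 (0.0516 to 0.160). mir-3470a (chr6:83090311-83090387, minus strand, in no other annotated gene) stood at 47.1 and 7.5, a ratio of 0.159 (0.0691 to 0.362). Both intervals lay wholly below a 2-fold difference. The other 5 entries of the list were low. mir-3473d (chr8:111016450-111016530, minus strand, in an intron of *Ddx19b*) stood at 2.5 in WT and 8.0 in KO, with an interval of the ratio from 0.794 to 38.4. mir-3473f stood at 2.3 and 1.0, mir-3473c at 0.2 and 1.5, mir-3473b at 0.3 and 0, and mir-1195 at 1.0 and 1.5. Of the 7 entries of this list, 4 were at least 2-fold lower and 2 at least 2-fold higher, against 23.1% and 26.7% of the whole table. Of the 4 lower ones, mir-3473f and mir-3473b were traces, and among all entries with a mean under 10 such calls made 34.9% (lower) and 40.4% (higher). The list's median log2 ratio was -0.31 over the 6 above 0 in both libraries. The median over all 794 such entries of the table was 0.

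Among the 9, the lowest ratio belonged to mir-3471-2 (chr4:3537090-3537191, plus strand, in no other annotated gene), which stood at 98.3 in WT and 3.0 in KO. Its ratio was 0.0305 (0.00617 to 0.0916), and the KO value is that of 3 reads, so its size is loosely fixed. mir-1954 (chr2:32652329-32652414, plus strand, in an intron of *Eng*, the endothelial receptor endoglin) stood at 69.0 in WT and 15.0 in KO, a ratio of 0.217 (0.115 to 0.382). Both were lower by more than 2-fold over the whole interval. mir-5098 (chr5:77272757-77272838, plus strand, in an intron of *Rest*, a repressor of neuronal genes) stood at 40.0 and 25.4, a ratio of 0.635. Its interval of 0.361 to 1.05 includes 1, so a difference was not detectable at this depth. The selection rule counts mir-3471 among the repeat matches, and here mir-3471-2 is listed with mir-1954, mir-5098 and mir-3535 in a mixed list of entries not placed in the other lists, although mir-3535 overlaps a small nucleolar RNA gene of GENCODE. No repeat annotation was used, so SINE sequence within these 4 hairpins was not tested. The counts and median of the SINE list therefore hold only for the entries listed there. Of these 4 entries, 2 were at least 2-fold lower and 0 higher, against 9.94% and 11.4% of the table at a mean of at least 10. Of the lower ones, mir-3471-2 passed that limit through WT alone, so this count is partly set by the limit. Their sum was 350.7 in WT and 127.2 in KO, a ratio of 0.363 (0.295 to 0.446). Without mir-3535, a sum chosen after seeing the data, it was 207.3 and 43.4, a ratio of 0.209 (0.149 to 0.294).

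Of the 9, mir-3535 and mir-1983 overlap another annotated small RNA gene, and neither was lower by 2-fold. mir-3535 (chr1:86351981-86352127, minus strand) lies in *Ncl*, the gene of nucleolin, and spans all 80 bases of the GENCODE small nucleolar RNA gene *Gm24148* (chr1:86352008-86352087). RefSeq instead gives the name *Gm24148* to a miRNA gene with the span of the mir-3535 hairpin. All 26 bases of miR-3535 fall inside the small nucleolar RNA gene. The mir-3535 entry stood at 143.4 in WT and 83.8 in KO, a ratio of 0.584 (0.441 to 0.770). It was lower by less than 2-fold, though its interval includes a 2-fold difference. mir-1983 spans all 94 bases of the transfer RNA gene *n-TItat14* (chr13:21896938-21897031). Of the 21 bases of miR-1983, 13 fall inside the transfer RNA gene and 8 beyond its end. The mir-1983 entry stood at 22.1 in WT and 46.9 in KO, a ratio of 2.12 (1.26 to 3.70). It was the only 1 of the 9 that was higher in KO, and its interval includes 2.

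**Figure D2:**
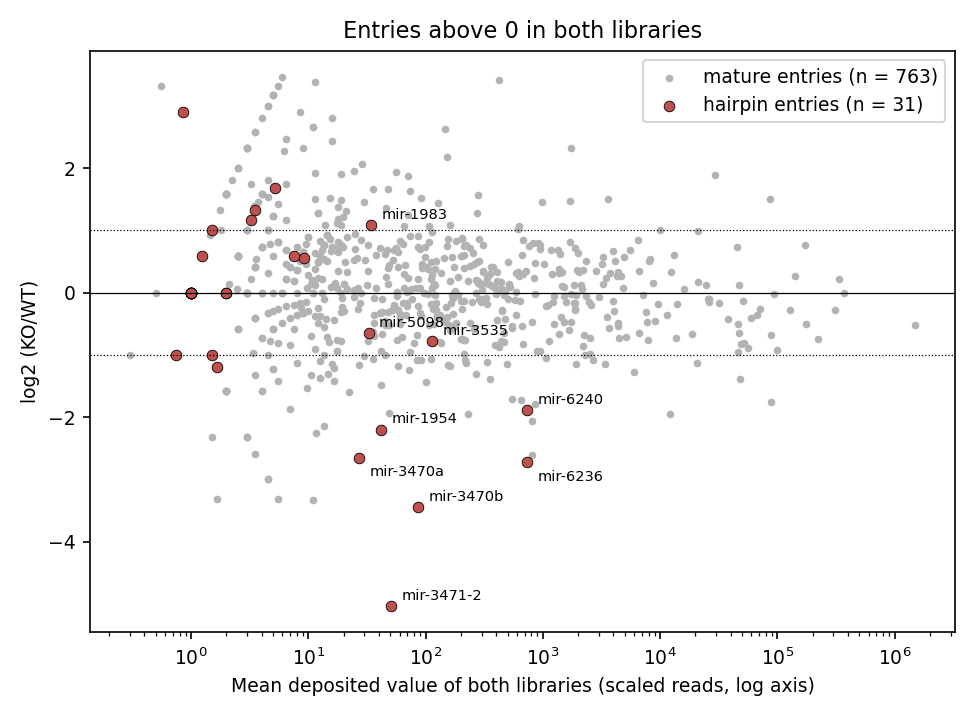
The log2 KO/WT ratio against the mean of both libraries (scaled reads, log axis) for entries above 0 in both, with dotted lines at a 2-fold difference. Of the labelled hairpin entries, 6 lie below the lower dotted line, and the unlabelled ones crowd at a mean under 10 on both sides of 0.

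To see whether the hairpin and mature parts of a number differed alike, both entries were set side by side. This was done for the 6 numbers whose entries both had a mean of 10 or more. miR-6236 stood at 77.7 in WT and 20.4 in KO, a ratio of 0.263 (0.150 to 0.427), and its interval overlapped that of the hairpin entry. miR-6240 stood at 511.5 and 195.5, a ratio of 0.382 (0.322 to 0.451), above the interval of the hairpin entry. Hairpin and mature entry were thus both lower in KO for this pair of ribosomal names.

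The repeat entries parted. miR-3470b stood at 159.8 in WT and 136.6 in KO, a ratio of 0.855 (0.677 to 1.08), against 0.0915 for its hairpin entry. miR-3470a stood at 47.6 and 136.1, a ratio of 2.86 (2.05 to 4.10), against 0.159. In WT, hairpin and mature entries of each of these 2 numbers had nearly equal values, and in KO the hairpin entry was far the lower. miR-3535 stood at 172.5 and 205.4, a ratio of 1.19 (0.968 to 1.47), whose interval lies above that of its hairpin entry. miR-1983 stood at 111.3 and 116.7, a ratio of 1.05 (0.801 to 1.37), and here the hairpin entry had the higher ratio with overlapping intervals. In all, the hairpin ratio was below the mature ratio in 5 of 6 numbers, and the intervals were apart in 4. mir-3470a passed the limit on the mean through WT alone, and without it these counts were 4 of 5 and 3.

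**Figure D3:**
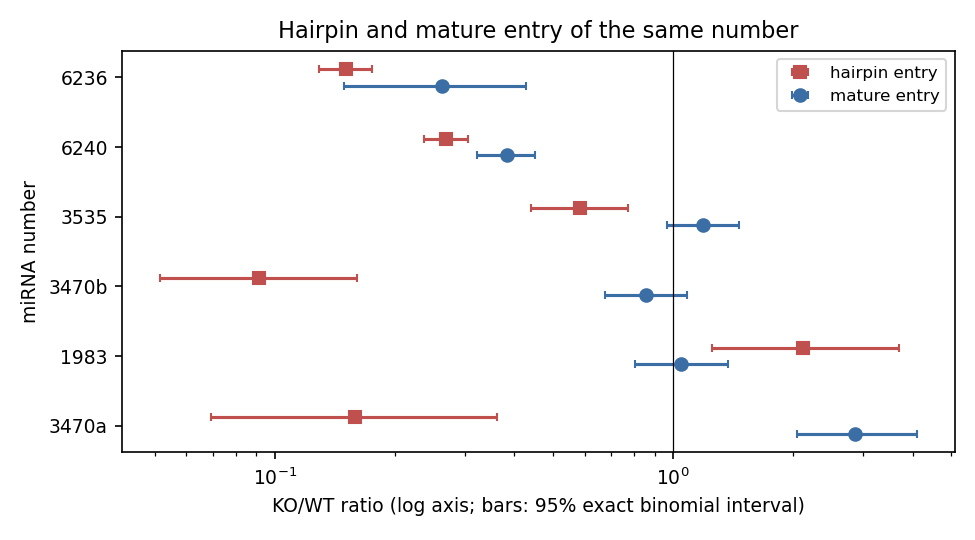
KO/WT ratios (log axis) of the hairpin entry and the mature entry for the 6 numbers in which both had a mean of 10 or more, with 95% exact binomial intervals for counting error. The intervals are apart for mir-6240, mir-3535, mir-3470b and mir-3470a.

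The same contrast can be put as the part of a number's reads that fell on the hairpin entry. For mir-3470a this was 49.7% in WT (95% Wilson interval 40.1 to 59.9%) and 5.22% in KO (2.84 to 10.6%). For mir-3470b it was 49.8% (44.4 to 55.3%) and 9.60% (6.07 to 15.6%). For mir-3535 it was 45.4% (40.0 to 50.9%) and 29.0% (24.0 to 34.4%). For mir-6240 it was 69.2% (67.0 to 71.4%) and 61.3% (57.0 to 65.5%). In these 4 numbers the hairpin part was smaller in KO with intervals apart, and in 3 of them (not mir-3470a) the hairpin entry reached 10 in each library.

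For both names listed as ribosomal RNA, the hairpin entry held most of the reads in either library. The hairpin part of mir-6236 was 94.2% in WT (92.9 to 95.4%) and 90.4% in KO (85.9 to 93.8%), with overlapping intervals. For mir-1983 the hairpin part was the smaller, with overlapping intervals, at 16.6% (11.2 to 23.8%) and 28.7% (22.3 to 36.0%). In 3 further numbers the mature product was nearly unseen. miR-1954 was listed at 1.0 in both libraries, miR-5098 at 0 and 1.0, and miR-3471 at 5.0 and 0, where a value of 0 allows up to 3 reads.

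**Figure D4:**
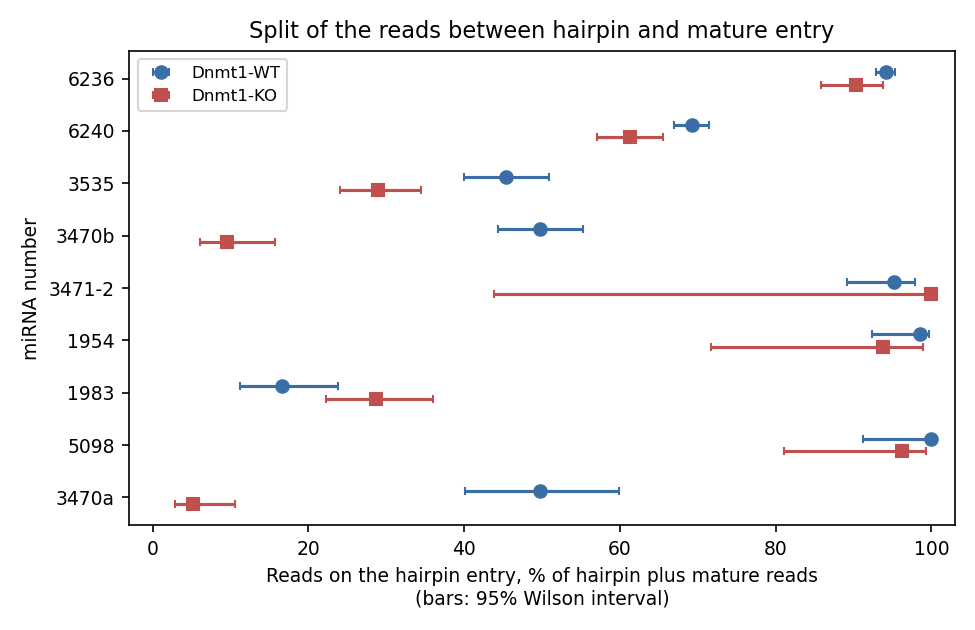
Reads on the hairpin entry as a percentage of hairpin plus mature reads of the same number, with 95% Wilson intervals, for the 9 hairpin entries with a mean of 10 or more. The KO point lies left of the WT point with intervals apart for mir-6240, mir-3535, mir-3470b and mir-3470a, and mir-3471-2 in KO rests on 3 reads.

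Which miRNAs had a hairpin entry followed how the mature product is named. A mature entry of the same number was on the table for 43 of the 67 hairpin entries, and in 41 of these its name gave no arm (5p or 3p). Seen from the mature side, 40 of the 125 mature entries without an arm in their name (32.0%) shared a number with a hairpin entry, against 3 of the 955 with an arm (0.314%). Among the 136 mature entries with a mean of at least 1000, this held for 1, miR-484, singled out after its values were seen. Only 6 of those 136 lack an arm in the name, so this held for 16.7% of the unarmed ones, against 32.8% of the 119 unarmed entries with a lower mean. miR-484 stood at 3389.6 in WT and 1704.2 in KO, whereas mir-484 was listed at 0 and 1.0.

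Of the 34 mature entries without an arm and with a mean of at least 10, 14.7% were at least 2-fold lower in KO and 23.5% at least 2-fold higher, and their median log2 ratio was 0.29. The table as a whole had 9.94% and 11.4% at that mean, and miR-6236 and miR-6240 are among the lower entries of the 34.

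Copies of the mature sequences in other transcripts were counted by exact match on either strand, leaving out transcripts annotated as miRNA. miR-3470b was found in transcripts of 1016 genes of 53248 (546 on the sense strand and 497 antisense), and in 10 of the 32851 promoter windows. miR-3471 was found in 61 genes and 11 promoter windows. Among the low members, 2 had many copies as well, miR-3473b in 726 genes and miR-706, which is not on the SINE list, in 450. The other SINE-listed sequences that matched, miR-3473c, miR-3473d, miR-3473f and miR-1195, were found in 0 genes. Of 1674 distinct mature sequences in the reference, only 5 (0.299%) were found in at least 10 genes, whereas this held for 4 of the 59 members with a matched sequence (6.78%). miR-6236, miR-6240, miR-1954, miR-1983, miR-5098 and miR-8111 were likewise found in transcripts of no other gene, and miR-3535 in those of 1. The same held for 75.6% of all 1674 sequences and 54.2% of the 59 members with no other gene. The search covered GENCODE transcripts, and the transfer RNA gene at mir-1983 was listed in RefSeq alone. Of the 21 bases of miR-1983, 8 lie beyond that gene, so its value of 0 was fixed beforehand. Introns left out of the transcripts and inexact copies were not searched, so 0 genes does not bear on those. The transcripts searched include 354 annotated as nuclear ribosomal RNA, the longest of 1849 bases, which is shorter than 28S ribosomal RNA, so the values of miR-6236 and miR-6240 do not bear on copies there.

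Part of the values were not whole reads. Dividing each value by its library's step, the value of 1 read, gave a number that was not whole (beyond a tolerance of 0.06) in at least 1 library for 17 of the 67 entries and for 4 of the 9 with a mean of at least 10. These were mir-3470b with 14.5 reads in KO, mir-3470a with 7.52 in KO, mir-1954 with 68.8 in WT, and mir-5098 with 39.9 in WT and 25.5 in KO. How such reads were divided between entries is not known, so these ratios are uncertain beyond the counting interval. The values of mir-6236, mir-6240, mir-3535, mir-3471-2 and mir-1983 were whole in both libraries.

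A search of the annotation for ribosomal, transfer, small nucleolar, small nuclear and other small RNA genes found an overlap at 4 of the 65 hairpin entries whose gene could be placed (6.15%), against 2.04% of all 2202 annotated miRNA genes. It compared positions and not sequences, so it does not bear on a match of mir-6236 or mir-6240 to ribosomal RNA. The 4 were mir-1983, mir-3535 and 2 low entries in small nucleolar RNA genes, mir-5121 (0 in WT and 1.0 in KO, with miR-5121 at 15 and 16) and mir-1949 (1.0 and 0).

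The 58 entries with a mean under 10 showed no common direction. Their sums were 61.3 in WT and 77.6 in KO, a ratio of 1.27 (0.898 to 1.81). At least 2-fold lower were 21 and at least 2-fold higher were 23, near the 34.9% and 40.4% of the 604 entries with such a mean. Of these 44, 41 rested on no more than 3 reads in either library. Over all 67 entries, 27 were at least 2-fold lower and 24 at least 2-fold higher, against 23.1% and 26.7% of the whole table. The median log2 ratio of the 31 above 0 in both libraries was 0.

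The low entries named for a value of at least 5 in either library had a higher value in KO, with intervals that include 1. mir-3473d and mir-1191a reached 5 in KO alone, so the limit itself favours that direction. mir-8111 (chr8:84005628-84005764, plus strand, in no other annotated gene) stood at 7.5 and 11.0. mir-8114 (chr1:153899926-153900036, plus strand, overlapping an exon of *Glul*, glutamine synthetase, and antisense to an exon of *Teddm2*) stood at 6.0 and 9.0. mir-1191a (chr7:27205536-27205655, plus strand, overlapping an exon of *BC024978*) stood at 2.0 and 5.0. Of the mature entries of these numbers, miR-8111 stood at 7.0 and 13.0 (ratio interval 0.685 to 5.47) and miR-8114 at 10 and 17 (0.731 to 4.13), so a difference was not detectable for either. miR-1191a stood at 3.0 and 19.0, a ratio of 6.33 (1.85 to 33.2), and miR-3473d at 5.0 and 26.9, a ratio of 5.38 (2.04 to 17.9).

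Entries seen in a single library were no more than a trace. There were 18 above 0 only in WT, with a highest value of 3.0 (mir-1946b and mir-3472), and 18 above 0 only in KO, with a highest value of 2.0. In the whole table, 14.7% were seen only in WT and 16% only in KO. The 4 entries listed under the Sfmbt2 intron and like families, whose copies are nearly identical, were among them: mir-467g at 1.5 and mir-466f-4 at 0.5 only in WT, and mir-297a-2 at 1.0 and mir-669j at 0.1 only in KO. At this depth none of these is distinguishable from an entry present in both libraries.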

How the data were processed

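Jejunal smooth muscle RNA was isolated (mirVana) and made into small RNA libraries (TruSeq, Illumina). Sequencing, alignment and annotation were done by a commercial provider on GRCm38/mm10, and the submitters' processing notes name Bowtie. Which miRNA database was used, how reads with several matches were divided, and the scaling are not given in the sources used here. The deposited table by the authors gives scaled read counts. The scale was worked out from the values. Of the values from 20 to 300, 88.6% of 229 in WT and 91.1% of 248 in KO were whole multiples (within 0.06) of a step of 1.00286 and 0.99721. Other steps between 0.98 and 1.02 gave medians of 8.73% and 8.87%. Dividing by the step gave 5725543 and 4767987 implied reads, and a value of 0 allows up to 3 reads, a share of 5.24e-05% in WT and 6.29e-05% in KO. Such libraries carry no molecular identifiers, so reads do not count molecules independently. The column with the authors' own fold change was not used.

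Ratios are KO/WT of deposited values with no pseudocount. Exact (Clopper-Pearson) intervals of a ratio and Wilson intervals of a share were computed at 95% from implied reads with Python 3.11.15, SciPy 1.17.1, NumPy 2.4.6 and pandas 2.3.3, and the functions were tested on simulated data. Implied reads were rounded to whole reads for the intervals, so where they were not whole, as for mir-3473d, mir-3470b and mir-3470a, the interval is that of the rounded reads. There was no replicate, hence no test. Every hairpin entry with a value of at least 5 in either library was named, and the lower entries named, with miR-484, miR-706 and miR-3473b, were singled out after their values were seen. The gene lists came from the selection rule, general knowledge and a supplementary table of the study. Members and lists were chosen with earlier results of these data known. Loci come from GENCODE M21 and RefSeq (GRCm38.p6), and RefSeq gene spans carry no strand here.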

Additional observations from a re-analysis of the deposited data

How the results depend on the processing

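The joint settings of scale and minimum mean, the counts by whole intervals and the sums by mean class were chosen after seeing the data. The counts of 27 entries at least 2-fold lower and 24 at least 2-fold higher rested on low values. A mean of at least 10 left 6 and 1, also with library totals set equal, with totals without miR-143-3p set equal and with the median ratio of entries with a mean of at least 100 set to 1. A mean of at least 100 left 2 and 0, entries above 0 in both libraries 9 and 6, and whole counting intervals past 2-fold 6 and 0. These settings keep fewer entries by construction. Shares of the whole table were not computed for entries above 0 in both libraries or for whole intervals, and the counts by whole intervals have no comparison here. Over the whole table, 265 entries were at least 2-fold lower and 306 at least 2-fold higher. Of these, 169 and 184 were above 0 in a single library. Entries above 0 in both libraries numbered 794 in the table and 31 among the hairpin entries. The 6 lower entries by whole intervals were the same 6 as at a mean of at least 10. They include mir-3471-2 and mir-3470a, which passed that limit on the mean through WT alone. The scalings alone and a pseudocount of 1 moved both counts by less than 1.5 times.

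The median log2 ratio, 0, became 0.27, 0.17 and 0.034 under the 3 scalings, -2.20 at a mean of at least 10 and -1.89 at a mean of at least 100. The summed ratio of 0.253 became 0.306 with equal totals and 0.285 with equal totals without miR-143-3p. It was 0.326 without mir-6236, 0.428 without mir-6236 and mir-6240, 0.233 for the 9 entries at a mean of 10 or more, and 1.27 for the 58 below that. Of 52 values for the 13 named entries, 50 stayed within the counting interval and none changed direction. Equal totals moved mir-6236 to 0.182 and mir-6240 to 0.326. Depth limits the 53 entries with no more than 3 reads in either library.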
